A study of Mus musculus with 6 samples.

Results

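Replication-dependent histone genes were examined in RNA-seq counts of mouse microglia. They were chosen as the genes whose symbol starts with Hist1h, Hist2h, Hist3h or Hist4h and whose raw counts, summed over the 6 wild-type libraries, reached at least 10. Of 38924 genes in the count tables, 62 carried such a symbol and 56 met the minimum, of which 53 are annotated as protein-coding and 3 (Hist1h2aj, Hist1h2al and Hist3h2bb-ps) as pseudogenes. The choice used the total over both ages and not the contrast between them. By histone type the 56 were 6 H1, 18 H2A, 13 H2B, 6 H3 and 13 H4 genes, and by cluster they were 45 Hist1, 7 Hist2, 3 Hist3 and 1 Hist4 genes. Just inside the minimum, the summed counts were 11 for Hist1h2aj, 41 for Hist1h2ah and 83 for Hist1h1t, and just outside they were 5 for Hist1h2bq, 5 for Hist1h2br and 1 for Hist2h2aa2. The other 3 symbols outside it (Hist1h2aa, Hist1h2ba and Hist2h3c1) had 0 counts in all 6 libraries.

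The libraries came from wild-type (WT) mice labelled as female, 3 mice of 5 weeks and 3 mice of 24 weeks, with 1 library per mouse. Microglia, the resident macrophages of the brain, were taken from whole brains with magnetic beads against CD11b, a surface protein that other myeloid cells also carry, so each library is a bulk sample of an enriched and not a pure population. Total RNA was extracted, and libraries made from it were sequenced with a strand-specific protocol. Whether the RNA was first selected by poly(A) tail is not given. Het libraries were not analysed here. The libraries of each age shared a sequencing lane of their own, so that age and lane cannot be told apart.

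Replication-dependent histone genes supply the histones that package newly made DNA, and most are transcribed chiefly in S phase. The core histones H2A, H2B, H3 and H4 form the nucleosome, and the linker histone H1 binds the DNA where it enters and leaves. Their mRNAs lack introns as a rule and end in a short stem-loop, bound by the protein SLBP, in place of a poly(A) tail, although some of these genes can also give longer polyadenylated transcripts.

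The stem-loop was searched in the annotated transcripts (GENCODE M21, GRCm38) as 16 bases that start with GG, hold TTNTNA in the centre and end with CC, on the coding strand after the stop codon. It was found in 39 of the 56 genes, at 21 to 58 bases after the stop codon (median 31). In a window of 100 bases after the stop codon it was present in 22 of the 24 protein-coding histone genes whose annotation covers the whole window, against 58 of 20079 other protein-coding genes (0.289%). Annotated histone genes without a row in the count tables, such as Hist1h3d, were not removed from this comparison set, so 58 is not a count of non-histone genes. In the other 17 of the 56 genes these letters are not in the annotated transcript. In many of these, such as Hist1h2ai, Hist1h2ak and Hist1h4k, the annotation ends at the stop codon, so a stem-loop could not be found there. Hist1h2bc and Hist2h2be lack the letters although 742 and 2192 bases are annotated after the stop codon. Each form found is shown here as it stands in 1 of the genes, with 5 bases on either side, as DNA from 5′ to 3′ and with the stem-loop in capitals.

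Hist1h1c: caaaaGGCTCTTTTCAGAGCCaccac
Hist1h3e: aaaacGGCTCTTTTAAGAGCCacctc
Hist2h2ac: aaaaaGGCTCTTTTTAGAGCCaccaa
Hist1h4d: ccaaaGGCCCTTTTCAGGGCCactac
Hist1h4i: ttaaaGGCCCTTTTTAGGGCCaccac
Hist1h4a: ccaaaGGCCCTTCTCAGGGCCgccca
Hist1h4j: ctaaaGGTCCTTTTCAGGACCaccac

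The form of Hist1h1c was shared by 21 genes of H1, H2A, H2B and H3, that of Hist1h3e by 5 genes of H1, H2B and H3, and that of Hist2h2ac was found in 1 gene. H4 genes carried none of these 3 forms. The form of Hist1h4d was found in 7 H4 genes, that of Hist1h4i in 2, that of Hist1h4a in 1 and that of Hist1h4j in 2. In 22 of the 39 genes the annotated transcript runs more than 50 bases beyond the stem-loop, as it does by 840 bases in Hist1h1c, 1153 in Hist1h1e and 2445 in Hist4h4. In the other 17 it ends within 50 bases of it.

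Promoters of 49 of the 56 genes were matched in RefSeq (GRCm38.p6), each with 250 bases before and 50 after the start. The letters CCAAT, on either strand, were present in all 6 H1, 16 H2A, 10 H2B and 5 H3 promoters but in 3 of 12 H4 promoters, against 37.4% of 32851 promoters. TATAAA was present in 30 of the 49 (61.2%), against 13.6% of all promoters. The octamer ATTTGCAT was present in 6 of 16 H2A and 4 of 10 H2B promoters and in none of the H1, H3 or H4 promoters, against 1.74% of all. GGGCGG was present in 9 of 12 H4 promoters and in 22 of the 49 (44.9%), against 35.7% of all. A missing motif says only that these letters are not in the window, and divergent genes share part of their windows.

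The H2A and H2B genes hold 10 divergent pairs, whose annotated starts lie 172 to 301 bases apart. The stretch between the RefSeq starts is given for 3 of them on the plus strand of GRCm38.p6, since the genes of a pair share this DNA and can be compared beside it. Capitals mark the letters CCAAT as well as the TATAAA and octamer letters on either strand. The stretches lie at chr13:23571221-23571399, chr13:23574208-23574380 and chr13:21716184-21716411.

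Hist1h2ae and Hist1h2bg: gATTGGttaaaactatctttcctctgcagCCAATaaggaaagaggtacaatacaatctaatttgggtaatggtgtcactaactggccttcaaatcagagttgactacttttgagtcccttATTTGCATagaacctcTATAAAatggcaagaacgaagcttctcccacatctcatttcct
Hist1h2bf and Hist1h2ad: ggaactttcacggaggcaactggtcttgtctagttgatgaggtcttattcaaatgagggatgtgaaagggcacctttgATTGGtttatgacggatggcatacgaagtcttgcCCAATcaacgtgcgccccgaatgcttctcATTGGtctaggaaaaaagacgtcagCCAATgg
Hist1h2bl and Hist1h2ai: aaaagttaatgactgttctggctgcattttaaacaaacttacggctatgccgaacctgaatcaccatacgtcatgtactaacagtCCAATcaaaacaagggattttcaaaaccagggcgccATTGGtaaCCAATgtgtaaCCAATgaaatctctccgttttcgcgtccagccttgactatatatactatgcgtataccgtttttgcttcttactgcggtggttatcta

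The first stretch holds 2 CCAAT boxes, 1 TATAAA and 1 octamer. The second and the third hold 4 CCAAT boxes each and neither of the other motifs.

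The sum of gene counts per library was 23198065 to 46434788 at 5 weeks and 10410625 to 13554336 at 24 weeks. Levels are given as CPM, counts scaled to a common total with TMM factors. The 12 microglia markers listed summed to 29927 to 34099 CPM at 5 weeks and 25230 to 28024 CPM at 24 weeks. Small non-coding RNAs took 6.30 to 7.51% of gene counts at 5 weeks and 1.39 to 1.63% at 24 weeks, and mitochondrial rRNA took 1.06 to 2.29% and 0.0037 to 0.016%. Alignments at several positions made up 32.7 to 35.5% of everything counted at 5 weeks and 22.5 to 23.5% at 24 weeks, and pairs on no exon 40.0 to 41.8% and 48.7 to 54.9% of uniquely placed pairs. The 24-week replicate 3 stood apart, with 78 counts of Xist, which female cells express from the inactive X chromosome, against 31677 to 59021 counts in the other libraries. This goes against its label as female, and the sex or identity of this library is in doubt.

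The 56 histone genes together were lower at 24 weeks. They summed to 2738, 2136 and 3319 CPM in the 5-week replicates 1, 2 and 3 and to 1711, 1583 and 1893 CPM in the 24-week replicates. All 3 libraries of 24 weeks lay below all 3 of 5 weeks, with means of 2731 ± 592 and 1729 ± 156 CPM (SD, n = 3 mice per age). Without regard to length, the H1 genes made up 65.0 ± 2.96% of the histone counts at 5 weeks and 62.0% at 24 weeks. The ages overlapped in this share (62.2% in the 5-week replicate 2 and 63.3% in the 24-week replicate 3). Only uniquely placed pairs were counted, and H1 genes share less sequence with other genes than the other types do. How far this raises the H1 share was not tested. In bulk samples, fewer cells that make a transcript and less of it per cell cannot be told apart.

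**Figure D1:**
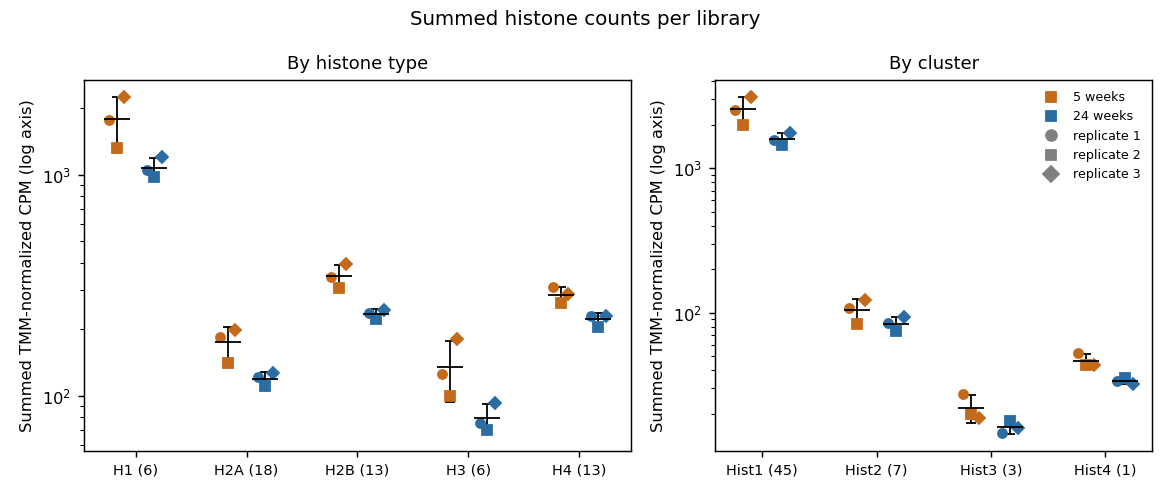
Summed TMM-normalized CPM (log axis) of the histone genes of each type (left) and each cluster (right), with the number of genes in parentheses. Each point is a library, with the mean as a black bar and the SD as its error bar (n = 3 mice per age); H1 and Hist1 held most of the counts, and the ages lay apart in each of the 5 types.

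Of the 54 histone genes with enough counts to be tested, 26 fell between 5 and 24 weeks (48.1%), 28 did not pass, and none rose. A gene passed at an adjusted p under 0.05 in edgeR's quasi-likelihood test with Benjamini-Hochberg adjustment over all 16157 genes tested, of which 13.3% were lower and 15.5% higher at 24 weeks. The median log2 fold change (24 weeks minus 5 weeks, as throughout) of the histone genes was -0.57, against 0.00 for all genes tested, and 50 of the 54 were negative. Of the 26 genes that fell, 7 were at less than 0.5 of their 5-week level. In Hist1h2ak, which also fell, the libraries of the 2 ages overlapped. At an unadjusted p under 0.05, edgeR gave 33 lower and 0 higher. DESeq2 called 27 lower and 0 higher, and limma-voom 23 and 0.

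The count of 26 depended on single libraries. It was 16 without the 5-week replicate 1, 17 without the 24-week replicate 1, 13 without the 24-week replicate 2 and 18 without the 24-week replicate 3, the library with few Xist counts. Hist1h1b, Hist1h1e, Hist1h2ae, Hist1h2ai, Hist1h2bc, Hist1h2be, Hist1h3a, Hist1h4a, Hist1h4f and Hist3h2bb-ps were called lower in all 16 alternative analyses. Among the 5-week libraries, replicate 2 was the lowest for 49 of the 56 genes and replicate 3 the highest for 32.

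Short protein-coding genes of other families were also lower at 24 weeks in many cases. Of 514 such genes with an annotated transcript under 1000 bases, 35.6% were lower and 3.31% higher, with a median log2 fold change of -0.42. Of the 40 tested protein-coding histone genes under 1000 bases, 17 fell, with a median of -0.57, and of the 12 of 1000 bases or more, 7 fell, with a median of -0.52. After the trend on transcript length and GC content had been removed from each library, 16 of the 54 fell and 11 changed sign (1 of them among the 26), with a median of -0.22, while 19.7% of all genes were lower and 15.6% higher. By class of the annotated transcript, the medians were -0.58 for 22 genes whose transcript runs well past the stem-loop (12 fell), -0.56 for 17 that end near it (7 fell) and -0.58 for 15 without the letters (7 fell). The last class includes genes whose annotation ends at the stop codon.

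**Figure D2:**
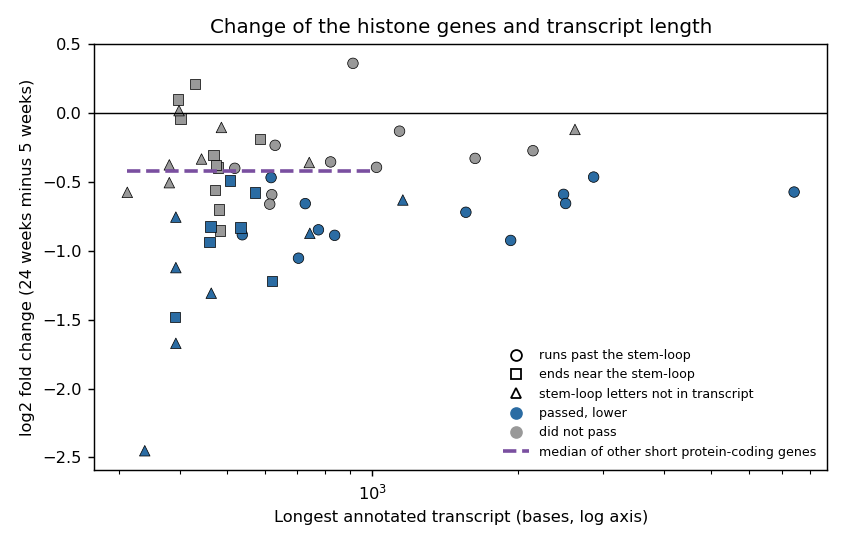
log2 fold change (24 weeks minus 5 weeks) of the 54 tested histone genes against the length of the longest annotated transcript (bases, log axis). The marker shape shows the class of the annotated transcript, blue marks genes that fell, and the dashed line is the median of -0.42 for 514 other protein-coding genes under 1000 bases; genes that fell were present among both short and long transcripts.

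By uniquely placed pairs, the H1 genes, which encode the linker histones, held the 2 highest histone genes per kilobase of exon at both ages. Of the 6 H1 genes, 4 fell (median log2 fold change -0.65). Their summed level was 1787 ± 466 CPM at 5 weeks and 1074 ± 114 CPM at 24 weeks (SD, n = 3). Hist1h1c, at chr13:23738808-23740367 on the plus strand, was the highest at both ages, with 532 ± 134 CPM per kilobase at 5 weeks and 323 ± 46.6 CPM per kilobase at 24 weeks. At 5 weeks its range of CPM per kilobase lay above that of Hist1h1e, the next in order.

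Hist1h1c was at 811, 630 and 1047 CPM in the 5-week replicates and at 482, 444 and 585 CPM in the 24-week replicates. Every 24-week library lay below every 5-week library, and the log2 fold change was -0.72 ± 0.18 (SE, adjusted p = 0.0129 in edgeR's quasi-likelihood test). The call was lost without the 24-week replicate 1 or the 24-week replicate 2. Hist1h1e, at chr13:23620629-23622558 on the minus strand, was at 460, 357 and 720 CPM at 5 weeks and at 269, 238 and 303 CPM at 24 weeks. Its ages did not overlap either, although the 5-week replicate 3 stood well above the other two, and it fell by 0.92 on the log2 scale (SE 0.22, adjusted p = 0.00922 in edgeR's quasi-likelihood test). The annotation of Hist1h1e overlaps that of Hist1h2be on the same strand, and pairs on exons of both would be counted for neither.

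Hist1h1d was at 471, 317 and 465 CPM at 5 weeks and at 278, 276 and 289 CPM at 24 weeks (change on the log2 scale -0.57 ± 0.15 SE, adjusted p = 0.0157 in edgeR's quasi-likelihood test). The 24-week libraries lay close together below the 5-week replicate 2, and the call was lost without the 5-week replicate 1, the 24-week replicate 1 or the 24-week replicate 2. Hist1h1b, named for being lower in all alternatives, was at 15.1, 10.2 and 12.4 CPM at 5 weeks and 7.08, 5.91 and 7.66 CPM at 24 weeks, without overlap (log2 fold change -0.87 ± 0.19 SE, adjusted p = 0.00607 in edgeR's quasi-likelihood test). Hist1h1a did not pass, with a log2 fold change of -0.36 ± 0.16. Hist1h1t, the testis-specific linker histone, had 20, 9 and 27 counts at 5 weeks and 7, 9 and 11 counts at 24 weeks, with overlapping CPM and a log2 fold change of 0.36 ± 0.41.

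**Figure D3:**
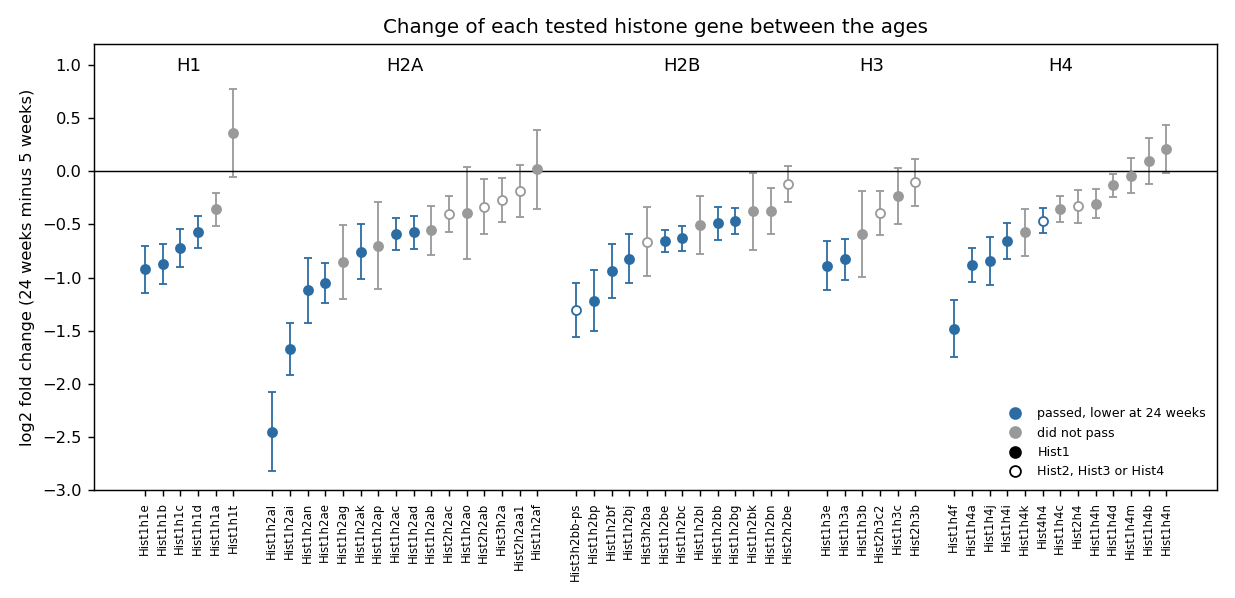
Change of the 54 tested histone genes as log2 fold change from 5 to 24 weeks with SE, grouped by histone type. Blue points passed and were lower, grey points did not pass, and open symbols are genes of Hist2, Hist3 or Hist4; the 4 positive values belong to genes that did not pass, and Hist1h2al lies lowest at -2.45.

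Of the H2A genes, 7 of 16 tested fell, with a median change of -0.58 and a summed level of 175 ± 29.9 CPM at 5 weeks and 119 ± 8.07 CPM at 24 weeks. The largest falls of all histone genes were here. Hist1h2al, a pseudogene apart from the rest of Hist1 at chr13:51202727-51203065, drew 73, 36 and 79 counts at 5 weeks but 4, 5 and 4 counts at 24 weeks. In CPM this was 2.28, 1.58 and 1.83 at 5 weeks and 0.292, 0.370 and 0.374 at 24 weeks (log2 fold change -2.45 ± 0.37 SE). The gene met the default filter on low counts only through the 5-week libraries, where it was high. Its fall is therefore given as a description, and its call is no support for a fall. Its level was low in all libraries, and under a filter for a mean count of at least 50 it was not tested.

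Hist1h2ai, at chr13:21716422-21716814 on the plus strand, was at 7.50, 5.25 and 8.46 CPM at 5 weeks and at 2.26, 2.51 and 1.87 CPM at 24 weeks. The lowest 5-week library was above the highest 24-week library (log2 fold change -1.67 ± 0.24 SE, adjusted p = 0.000684 in edgeR's quasi-likelihood test). Of the windows of its transcript that are as long as a read, 88.4% also occur in other genes, most often in Hist1h2ad. Where in the gene its uniquely placed pairs lie was not examined. Hist1h2an, with 83.3% of windows shared, was at 4.75, 2.89 and 6.61 CPM at 5 weeks and 2.19, 2.44 and 1.96 CPM at 24 weeks (change on the log2 scale -1.12 ± 0.31 SE, adjusted p = 0.0198 in edgeR's quasi-likelihood test). That call was lost without the 5-week replicate 1 or 3, or the 24-week replicate 1 or 3, and by limma-voom.

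Hist2h2ac was the highest H2A gene per kilobase of exon, at 99.6 ± 22.8 CPM per kilobase at 5 weeks, and did not pass. It was at 49, 41.5 and 64.8 CPM at 5 weeks and 38.7, 34.2 and 45.2 CPM at 24 weeks, and the 24-week replicate 3 overlapped the 5-week libraries (log2 fold change -0.40 ± 0.17). Hist1h2ac was at 33.0, 25.7 and 32.7 CPM at 5 weeks and 23.3, 19.7 and 17.7 CPM at 24 weeks, without overlap (log2 fold change -0.59 ± 0.15 SE, adjusted p = 0.0122 in edgeR's quasi-likelihood test). That call was lost without the 5-week replicate 1 or the 24-week replicate 2 or 3. Hist3h2a did not pass, with a log2 fold change of -0.27 ± 0.21.

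Of the 13 H2B genes, which encode the partner of H2A in the nucleosome, 8 fell (median -0.63). The summed H2B level was 348 ± 44.1 CPM at 5 weeks and 235 ± 11.8 CPM at 24 weeks. Hist1h2be, at chr13:23583670-23621124 on the minus strand, was at 111, 115 and 128 CPM at 5 weeks and at 73.3, 72.0 and 79.4 CPM at 24 weeks. The replicates of each age lay close together and the ages did not overlap (log2 fold change -0.66 ± 0.11 SE, adjusted p = 0.00116 in edgeR's quasi-likelihood test).

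Hist1h2bg was the highest H2B gene per kilobase of exon, at 156 ± 20.7 CPM per kilobase at 5 weeks and 113 ± 8.87 CPM per kilobase at 24 weeks. It was at 98.2, 82.7 and 108 CPM at 5 weeks and 74.5, 63.7 and 70.8 CPM at 24 weeks. The ages did not overlap (log2 fold change -0.47 ± 0.12 SE, adjusted p = 0.0161 in edgeR's quasi-likelihood test), but with length and GC trends removed the log2 fold change was 0.01, and the call was also lost without the 5-week replicate 1 or the 24-week replicate 2. Hist1h2bc was at 56.3, 49.5 and 61.0 CPM at 5 weeks and 34.6, 34 and 39.3 CPM at 24 weeks, without overlap (log2 fold change -0.63 ± 0.12 SE, adjusted p = 0.00318 in edgeR's quasi-likelihood test).

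The pseudogene Hist3h2bb-ps, at chr11:58954048-58954512, was the only gene of Hist3 to fall in edgeR. It was at 4.50, 3.28 and 5.06 CPM at 5 weeks and at 1.68, 1.85 and 1.68 CPM at 24 weeks, without overlap (log2 fold change -1.31 ± 0.25 SE, adjusted p = 0.00335 in edgeR's quasi-likelihood test). Hist1h2bp was at 2.0, 1.97 and 2.29 CPM at 5 weeks and 1.02, 0.739 and 0.934 CPM at 24 weeks, without overlap (log2 fold change -1.22 ± 0.29 SE, adjusted p = 0.0101 in edgeR's quasi-likelihood test). Its call was lost without the 24-week replicate 2, with length and GC trends removed, and under the filter for a mean count of at least 50, where it was not tested. Hist2h2be did not pass, at 8.45 to 11.3 CPM at 5 weeks and 8.60 to 10.6 CPM at 24 weeks.

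Of the 6 H3 genes, 2 fell (median -0.49), and the summed level was 135 ± 41.3 CPM at 5 weeks and 79.3 ± 12.2 CPM at 24 weeks. H3 is the nucleosome histone whose tail carries many of the best known modifications. Hist1h3a was at 57.2, 47.8 and 82.3 CPM at 5 weeks and 33.6, 29.9 and 42.3 CPM at 24 weeks, without overlap (log2 fold change -0.83 ± 0.20 SE, adjusted p = 0.00941 in edgeR's quasi-likelihood test). Hist1h3e was at 52.0, 38.6 and 80.6 CPM at 5 weeks and 27.2, 29.1 and 36.6 CPM at 24 weeks. Its ages did not overlap, though the 5-week replicate 2 was near the 24-week replicate 3 (log2 fold change -0.89 ± 0.23 SE, adjusted p = 0.0152 in edgeR's quasi-likelihood test). The call of Hist1h3e was lost with length and GC trends removed and without the 24-week replicate 1 or 2. The H3 genes of Hist2 did not pass, with log2 fold changes of -0.10 ± 0.23 for Hist2h3b and -0.39 ± 0.21 for Hist2h3c2.

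The 13 H4 genes had the least negative median of the 5 types (-0.35), and 5 of them fell. With length and GC trends removed, the medians were -0.51 for H1, -0.28 for H2A, -0.21 for H2B, -0.19 for H3 and -0.18 for H4. In that analysis 4 H1, 5 H2A, 3 H2B, 1 H3 and 3 H4 genes fell. Whether H4 differed from the other types was not tested. The H4 sum was 287 ± 24.5 CPM at 5 weeks and 222 ± 14 CPM at 24 weeks. Hist1h4d was at 68.4, 63.0 and 58.7 CPM at 5 weeks and at 57.9, 53.7 and 62.1 CPM at 24 weeks. The ages overlapped and it did not pass (log2 fold change -0.13 ± 0.11). Hist1h4c stood highest among H4 genes per kilobase of exon, with 68.5 ± 6.94 CPM per kilobase at 5 weeks. It was at 59.1, 49.6 and 59.8 CPM at 5 weeks and 47.1, 38.5 and 46.4 CPM at 24 weeks, without overlap, but it did not pass (log2 fold change -0.35 ± 0.12 SE, adjusted p = 0.0528 in edgeR's quasi-likelihood test).

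Hist1h4f, at chr13:23551258-23551648 on the minus strand, had the largest fall among H4 genes. It was at 5.53, 3.63 and 4.99 CPM at 5 weeks and at 1.90, 1.26 and 1.96 CPM at 24 weeks, without overlap (log2 fold change -1.48 ± 0.27 SE, adjusted p = 0.00243 in edgeR's quasi-likelihood test). It carries the same stem-loop form as Hist1h4d, which did not pass. Hist1h4a, named for being lower in all alternatives, was at 31.8, 25.4 and 32.3 CPM at 5 weeks and 13.5, 15.6 and 19.6 CPM at 24 weeks, without overlap (log2 fold change -0.88 ± 0.16 SE, adjusted p = 0.00233 in edgeR's quasi-likelihood test). Hist4h4, the only gene of its cluster, was at 52.8, 43.2 and 43.6 CPM at 5 weeks and 33.8, 35.5 and 31.9 CPM at 24 weeks, without overlap (log2 fold change -0.46 ± 0.12 SE, adjusted p = 0.0145 in edgeR's quasi-likelihood test). Hist2h4 did not pass, with a log2 fold change of -0.33 ± 0.16. The call of Hist4h4 was lost without the 5-week replicate 1 or the 24-week replicate 1 or 3. The 3 positive H4 and H2A values belonged to Hist1h4b, Hist1h4n and Hist1h2af, at 0.10 ± 0.21, 0.21 ± 0.23 and 0.02 ± 0.37 on the log2 scale, none of which passed.

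By cluster, 24 of 43 tested Hist1 genes fell (median -0.59), in a sum of 2558 ± 573 CPM at 5 weeks and 1595 ± 150 CPM at 24 weeks. Within Hist1 on chromosome 13, 8 of 17 fell in the block from 21715763 to 22043676 and 15 of 25 in the block from 23531050 to 23764406. The first block summed to 111 ± 23.8 CPM at 5 weeks and the second to 2446 ± 550 CPM, so most of the histone counts came from the second. In Hist2, on chromosome 3, none of 7 genes passed edgeR's quasi-likelihood test, with 1 lower at an unadjusted p under 0.05 and 0 calls by DESeq2 or limma-voom. The median there was -0.33, and the sum was 107, 84.1 and 122 CPM at 5 weeks and 84.8, 74.4 and 92.7 CPM at 24 weeks, with overlap between the ages. Whether Hist2 changed less than Hist1 was not tested.

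The genes share sequence with each other to different degrees. The share of read-length windows that also occur in other genes was 0% to 5% in H1 genes and had a median of 64.4% in H2A, 34.4% in H2B, 49.4% in H3 and 18.8% in H4 genes. Of 23 tested genes with less than 20% of windows shared, 13 fell (median -0.59), as did 10 of 16 with 20% to 60% (median -0.61) and 3 of 15 with at least 60% (median -0.39). In the last group most read-length windows do not tell the gene from others, as in Hist1h4m (88.1% shared, log2 fold change -0.04 ± 0.17) and Hist2h2aa1 (95.9% shared, -0.19 ± 0.25), neither of which passed.

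The 10 divergent pairs, each of 1 H2A and 1 H2B gene and named for their position, differed in how many of their genes passed. In every pair with both genes tested, both log2 fold changes were negative. Both genes fell in 4 pairs, 1 of them in 4 and neither in 2. In the pair printed first, Hist1h2ae was at 12.6, 8.58 and 10.7 CPM at 5 weeks and 5.55, 4.88 and 4.95 CPM at 24 weeks (change on the log2 scale -1.05 ± 0.19 SE, adjusted p = 0.0023 in edgeR's quasi-likelihood test), beside the -0.47 of Hist1h2bg. In the second, Hist1h2bf was at 6.16, 5.65 and 10.2 CPM and then at 4.31, 3.62 and 3.64 CPM (-0.93 ± 0.25), and Hist1h2ad at 21, 17 and 21.7 CPM and then at 12, 12.7 and 15.5 CPM (-0.58 ± 0.15). The ages did not overlap in any of these 4 genes, but the calls of Hist1h2bf and Hist1h2ad were lost without the 24-week replicate 2 and with length and GC trends removed. That of Hist1h2bf was also lost without the 24-week replicate 3, and that of Hist1h2ad without the 5-week replicate 1 or the 24-week replicate 1.

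In the third pair, Hist1h2bl was at 6.06, 4.33 and 7.53 CPM at 5 weeks and 3.72, 3.25 and 5.89 CPM at 24 weeks, with overlap, and did not pass (log2 fold change -0.50 ± 0.27), whereas its partner Hist1h2ai fell by 1.67 on the log2 scale. The other pairs in which both fell were Hist1h2ac with Hist1h2bc and Hist1h2an with Hist1h2bp. Hist1h2bj fell and Hist1h2ag did not pass, although their log2 fold changes were close (-0.82 ± 0.23 and -0.85 ± 0.35). Hist1h2ak fell and Hist1h2bn did not pass, and Hist3h2bb-ps fell and Hist3h2a did not pass. The call of Hist1h2ak (adjusted p = 0.0498 in edgeR's quasi-likelihood test) held in 5 of the 16 alternatives, and was lost by limma-voom, with length and GC trends removed, with thinned 5-week libraries and without any library other than the 5-week replicate 2. That of Hist1h2bj was lost with length and GC trends removed and without the 24-week replicate 1 or 2. Neither gene passed in the pairs Hist2h2ac with Hist2h2be and Hist1h2ah (not tested) with Hist1h2bk. The difference between the partners of a pair was not tested.

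**Figure D4:**
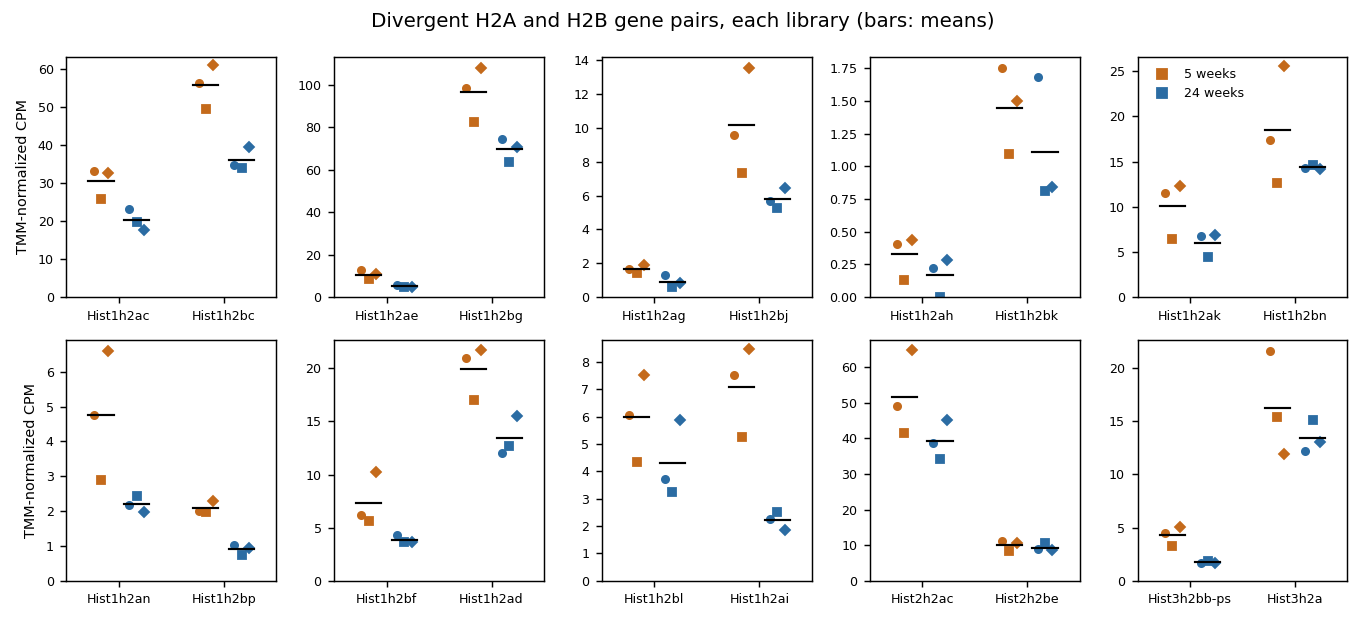
TMM-normalized CPM of both genes of each of the 10 divergent H2A and H2B pairs in every library, with a separate linear axis from 0 for each pair. Orange points are the 3 libraries of 5 weeks, blue points the 3 of 24 weeks and black bars the means (n = 3); the ages lay apart for both Hist1h2ae and Hist1h2bg but overlapped for Hist1h2bl beside Hist1h2ai.

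Few genes of S phase and the cell cycle passed the test. Of 37 tested, 3 were higher and 1 lower (2 lower without the 5-week replicate 3), with a median log2 fold change of 0.18. Over all genes tested, 15.5% were higher and 13.3% lower, so both counts lay below the general shares. Mki67, a nuclear protein of dividing cells, was at 8.85, 7.57 and 8.36 CPM at 5 weeks and 30.7, 19.2 and 22.0 CPM at 24 weeks, without overlap (log2 fold change 1.53 ± 0.18 SE, adjusted p = 0.000183 in edgeR's quasi-likelihood test). Tk1, a thymidine kinase, was at 1.09, 0.613 and 1.09 CPM and then at 1.97, 3.03 and 2.52 CPM (1.39 ± 0.32). E2f8, a transcription factor of the cell cycle, had a log2 fold change of 1.09 ± 0.38 that passed narrowly and was lost under most alternatives. E2f8 met the filter on low counts through the 24-week libraries, where it was higher, so its call is no support for a rise. Fen1, a nuclease of DNA replication, was at 13.9, 13.9 and 12.9 CPM at 5 weeks and 9.41, 7.02 and 8.78 CPM at 24 weeks, and was the 1 that fell (-0.69 ± 0.16).

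Variant histone genes, which are expressed also outside S phase and from polyadenylated mRNAs, were lower in 4 of 11 and did not pass in 7 (median -0.21). Over all genes tested, 13.3% were lower. H3f3b, which encodes the variant H3.3, was at 3377, 2913 and 3504 CPM at 5 weeks and 1607, 1592 and 2119 CPM at 24 weeks. It fell by 0.88 on the log2 scale, without overlap of the ages (SE 0.16, adjusted p = 0.00206 in edgeR's quasi-likelihood test). H3f3a, which encodes the same protein, fell by 0.71, H2afj by 0.66 and H2afz by 0.58 on the log2 scale. The call of H2afz was lost without the 5-week replicate 1 or any of the 24-week replicates, with total counts only, with thinned 5-week libraries and with length and GC trends removed.

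Of 22 tested genes that process or degrade histone mRNA, 1 was higher and 3 lower (median -0.02). Over all genes tested, 15.5% were higher and 13.3% lower, so the lower count was near the general share and the higher count below it. Slbp, which binds the stem-loop, was at 51.8, 46.4 and 38.9 CPM at 5 weeks and 32.9, 28.5 and 28.5 CPM at 24 weeks, without overlap (log2 fold change -0.61 ± 0.13 SE, adjusted p = 0.00644 in edgeR's quasi-likelihood test). Lsm10, a subunit of the U7 particle that cuts histone mRNA, fell by 0.53 on the log2 scale and Cstf2t by 0.42, while Cstf3 rose by 0.59 (the last 2 encode cleavage stimulation factors). The calls of these 3 genes, unlike that of Slbp, were lost without some of the single libraries. That of Lsm10 was also lost with length and GC trends removed (log2 fold change -0.20), and those of Lsm10 and Cstf2t with total counts only. Of 22 histone chaperone and assembly genes, 4 were higher and 2 lower (median -0.11), against 15.5% higher and 13.3% lower over all genes tested. The 4 of smallest p all rose, namely Hira (log2 fold change 0.66 ± 0.13), Ipo4 (0.50 ± 0.15), Supt6 (0.34 ± 0.10) and Cabin1 (0.51 ± 0.16). Hira and Cabin1 belong to the complex that deposits H3.3. Ubn1, also of that complex, did not pass (-0.13 ± 0.10), and was lower with length and GC trends removed (-0.40). Of the 4, the calls of all but Hira were lost without some of the single libraries. With length and GC trends removed, those of Supt6 (log2 fold change 0.06) and Cabin1 (0.19) were also lost.

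Some markers of other cell types also differed between the ages. Over all genes tested, 13.3% were lower and 15.5% higher at 24 weeks, and some of the sets below were near these shares. Of 13 endothelial and mural markers, 11 were higher at 24 weeks, and their sum was 350 to 435 CPM at 5 weeks and 792 to 835 CPM at 24 weeks. Of 8 markers of border-associated macrophages, 6 were lower, from 2563 to 2940 CPM at 5 weeks to 1752 to 1811 CPM at 24 weeks. Of 12 microglia markers, 4 were lower and 1 higher, of 8 astrocyte markers 4 were lower, of 10 oligodendrocyte markers 3 were lower and 1 higher, and of 5 tested markers of B, T and NK cells 2 were lower. Of 10 tested neutrophil and monocyte markers 1 was lower, of 9 neuron markers 2 were lower and 1 higher, and of 6 choroid plexus and ependymal markers 1 was higher. The part of these cells, of the shares of small, mitochondrial and multiply placed RNA and of read depth in the histone values was not tested, except that 5-week libraries thinned to the median 24-week total still gave 25 histone genes lower.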

How the data were processed

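Gene counts of 6 WT libraries were analysed, 3 per age. The authors trimmed read pairs with trim_galore, used TopHat2 2.0.13 for alignment to GRCm38, and ran HTSeq 0.6.1 over Ensembl release 75 exons (reverse strand, uniquely placed pairs). Raw counts were deposited, not normalized, and rows that name no gene were left out. How the RNA was selected before sequencing is not given in the sources used here, which bears on mRNAs without a poly(A) tail. Symbols and positions came from GENCODE M21 (37607 of 38924 identifiers matched), and a histone symbol whose identifier did not match is not analysed here.

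Ages were compared in edgeR 4.0.16 under R 4.3.3 (TMM factors, the default filter on low counts by age, quasi-likelihood test, age as the only term, Benjamini-Hochberg adjustment over all genes tested, threshold 0.05). Standard errors were derived from the F statistic of each gene. The script was tested on simulated data. Summed levels were described without a test. A window was called shared when its bases, as many as in a read, occur in a transcript of another gene at another position. The alternatives were other size factors, DESeq2 1.42.0, limma-voom 3.58.1, other filters, thinned 5-week libraries, removal of length and GC trends, the replicate number as a block, and leaving out each library. With 3 libraries per age, no library of a group was screened as an outlier, and every pair of libraries of an age differed beyond sampling noise.

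The histone genes and the comparison lists were chosen with earlier results of these data known. Genes were named by a rule: the 12 histone genes with the highest mean CPM, the 6 largest falls that passed, the highest gene of each type in each cluster, the 3 genes on either side of the count minimum, and up to 4 genes of smallest p in each of 4 comparison lists. Genes of the divergent pairs, those lower in all alternatives, positive values and examples of shared sequence were named after their values were seen. So were Hist1h1a, Hist2h3c2 and Ubn1.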

Additional observations from a re-analysis of the deposited data

How the results depend on the processing

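The count of histone genes that were lower (26) ranged from 23 to 28 under other size factors, DESeq2, limma-voom, other filters and thinned 5-week libraries, and was 16 with length and GC trends removed. Leaving out 1 library gave 13 to 29. Higher histone genes numbered 0 throughout. Of the S-phase genes, the 3 that were higher became 6 with total counts only, 1 under a mean count of at least 50, and 2 to 4 with 1 library left out. The 1 that was lower became 2 with DESeq2 size factors, TMM over protein-coding genes, DESeq2, no filter or thinned 5-week libraries, 4 with length and GC trends removed, and 1 to 2 with 1 library left out. Variant histone genes that were higher numbered 0 to 1 with 1 library left out. The cause was not tested.

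With length and GC trends removed, the sign turned for 11 of the 54 tested histone genes, among them 4 named by the rule, which were Hist1h2bg (log2 fold change 0.0076), Hist1h4c (0.010), Hist1h4d (0.12) and Hist2h3b (0.24). Hist2h3b ranged from -0.25 to 0.10 with 1 library left out, and was at 0.10 without the 5-week replicate 3 and 0.04 without the 24-week replicate 2. Over the 40 named genes that were tested and 16 alternatives, 543 of 631 values kept direction and call, 74 lost and 8 gained the call, and 6 changed sign.

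The replicate numbers did not pair the libraries. Deviations of same-numbered libraries correlated at 0.07, 0.09 and -0.05 across genes, and not every library correlated best with its own number. With the replicate number as a block, 28 histone genes were lower and 0 higher. Genes with few counts, such as Hist1h1t and Hist1h2al, are limited by the depth of the 24-week libraries.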
